A study of Mus musculus with 3 samples.

Results

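The 82 protein-coding genes described here encode the voltage-gated sodium channels, the HCN, TRP, acid-sensing, P2X, Piezo and cyclic nucleotide-gated channels, the epithelial sodium channel, the CLC chloride proteins and the anoctamins of the mouse. They were chosen by symbol (Scn, Hcn, Clcn, Asic, P2rx, Cnga and Piezo genes, Trpc, Trpm, Trpv and Trpa genes, and Ano2 to Ano10) from the 21757 protein-coding genes of the GENCODE M39 annotation. The choice was made with earlier results of these data known. Scnm1, Trpc4ap and Trpc5os carry a fitting symbol but encode no channel, and were kept because the symbol was the criterion.

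The data are hydroxymethylated DNA immunoprecipitation (hMeDIP) libraries of cerebellum DNA, in which an antibody against 5-hydroxymethylcytosine (5hmC) pulled down fragments that were then read directly by nanopore sequencing. All 3 replicates came from cerebellum with no stated treatment, female, C57Bl6Cr and 8 weeks old, under the library name of 1 cerebellum DNA sample, and each reaction used 1 µg of DNA. The antibody was whole serum in replicate 1 and IgG-purified in the other replicates. With 1 group, 1 such sample and no second condition, the SDs given here describe repeated reactions on the same DNA and not mice, and antibody and replicate 1 cannot be told apart.

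5hmC is made from 5-methylcytosine (5mC) by the TET enzymes, and in neurons it is abundant in the bodies of transcribed genes. Sodium, HCN and TRP channels carry cations across the membrane and set when a neuron fires, whereas CLC proteins and several anoctamins carry chloride or move lipids. In the cerebellum, Purkinje and granule cells are known for sodium currents that support fast and repetitive firing. The tissue held all cell types together, so fewer cells that carry 5hmC at a site and less 5hmC per cell cannot be told apart.

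Peaks were the stretches in which a replicate's reads piled up over an untreated library, and peaks of the 3 replicates that overlapped were joined into merged regions. A region belonged to a gene if its midpoint lay in the gene body or in the 1 kb before it. Replicate 1 stood apart, with 497 peaks in all against 8546 in replicate 2 and 5166 in replicate 3. Of 13342 merged regions, 78 lay in channel genes and 10651 in other protein-coding genes. A peak in replicate 2 alone marked 46 of the 78, a peak in replicate 3 alone marked 27, a peak in replicate 1 alone marked 1, and 4 had peaks of replicates 2 and 3.

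The sequences below show the DNA that the peaks picked up, for 2 regions called in 2 replicates (P2rx7 and Ano2) and for 3 of the regions with most base-calls (Asic2, Scn2b and Trpm8). Each is the 300 bases of the region outside any untranslated region (UTR) that held most base-calls, on the forward strand of GRCm39, with the CpG sites in capitals. The windows are chr5:122818541-122818840 in intron 12 of P2rx7, chr6:125853968-125854267 in intron 13 of Ano2, chr11:80814465-80814764 in intron 3 of Asic2, chr9:45031369-45031668 in intron 1 of Scn2b, and chr1:88205872-88206171 in Trpm8, before the start of its canonical transcript.
P2rx7: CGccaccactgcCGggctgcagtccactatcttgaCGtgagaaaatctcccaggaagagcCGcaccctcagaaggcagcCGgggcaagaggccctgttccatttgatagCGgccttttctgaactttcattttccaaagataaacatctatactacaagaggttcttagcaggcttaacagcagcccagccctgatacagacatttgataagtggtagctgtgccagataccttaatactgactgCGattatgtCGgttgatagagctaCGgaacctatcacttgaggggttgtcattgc
Ano2: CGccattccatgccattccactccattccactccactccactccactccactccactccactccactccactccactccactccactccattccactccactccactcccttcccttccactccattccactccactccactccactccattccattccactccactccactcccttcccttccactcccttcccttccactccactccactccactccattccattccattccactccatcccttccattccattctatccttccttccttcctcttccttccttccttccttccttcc
Asic2: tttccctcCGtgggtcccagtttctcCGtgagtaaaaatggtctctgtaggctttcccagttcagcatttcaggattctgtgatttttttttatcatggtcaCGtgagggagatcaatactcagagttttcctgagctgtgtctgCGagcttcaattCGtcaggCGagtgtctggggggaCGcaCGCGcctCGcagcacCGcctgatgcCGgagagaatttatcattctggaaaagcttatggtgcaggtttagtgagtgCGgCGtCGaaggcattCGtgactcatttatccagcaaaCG
Scn2b: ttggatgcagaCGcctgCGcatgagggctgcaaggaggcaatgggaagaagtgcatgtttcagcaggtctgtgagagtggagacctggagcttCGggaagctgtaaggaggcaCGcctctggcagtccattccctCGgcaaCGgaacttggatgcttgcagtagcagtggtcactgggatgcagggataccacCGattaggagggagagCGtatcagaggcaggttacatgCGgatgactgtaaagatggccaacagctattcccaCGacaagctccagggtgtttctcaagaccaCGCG
Trpm8: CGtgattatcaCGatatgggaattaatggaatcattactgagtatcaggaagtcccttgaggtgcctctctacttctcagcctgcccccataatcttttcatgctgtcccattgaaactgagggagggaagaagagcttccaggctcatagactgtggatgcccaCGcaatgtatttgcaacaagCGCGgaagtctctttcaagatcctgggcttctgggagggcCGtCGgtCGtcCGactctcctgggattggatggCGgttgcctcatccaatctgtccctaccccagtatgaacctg
The P2rx7 window held 9 CpG sites, of which 6 had a 5hmC call (7 of 24 calls over the replicates). The Asic2 window held 17 CpG sites, 8 with a 5hmC call (11 of 35 calls). In Scn2b 5 of 12 sites had a 5hmC call (5 of 19 calls), and in Trpm8 6 of 10 sites did (8 of 31 calls). The Ano2 window differed in kind. It was a run of tccat-like and ttcc repeats with 1 CpG site, called once and as 5mC.

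Of the 82 channel genes, 29 held at least 1 merged region, which is 35.4% (95% exact binomial interval 25.1 to 46.7%) against 20% of all protein-coding genes. The count depended on replicate 2 and on weak peaks. Without replicate 2, 19 channel genes held a region, and with only peaks of at least 4 times their local background, 12 did. A region with peaks of 2 replicates was found in 4 channel genes, 4.88% of the 82 (1.34 to 12%), against 2.54% of all. Counted over regions, 4 of 78 (5.13%) had peaks of 2 replicates, against 6.10% of the regions in all protein-coding genes, and none had peaks in all 3. Channel genes were long, with a median of 40.3 kb against 19.2 kb, and longer genes held regions more often. At the shares found for all genes of the same length class, 24.8 of the 82 members would hold a region, against the 29 found. No channel gene under 10 kb held a region (0 of 4, against 6.44% of all genes of that length). The share was 28.6% of 28 members between 10 and 30 kb, against 15.1% of all, and 38.5% of 26 members between 30 and 100 kb, against 27.9%. It was 35.3% of 17 members between 100 and 300 kb, against 50.1%, and 71.4% of 7 members of 300 kb or more, against 64.5%.

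**Figure D1:**
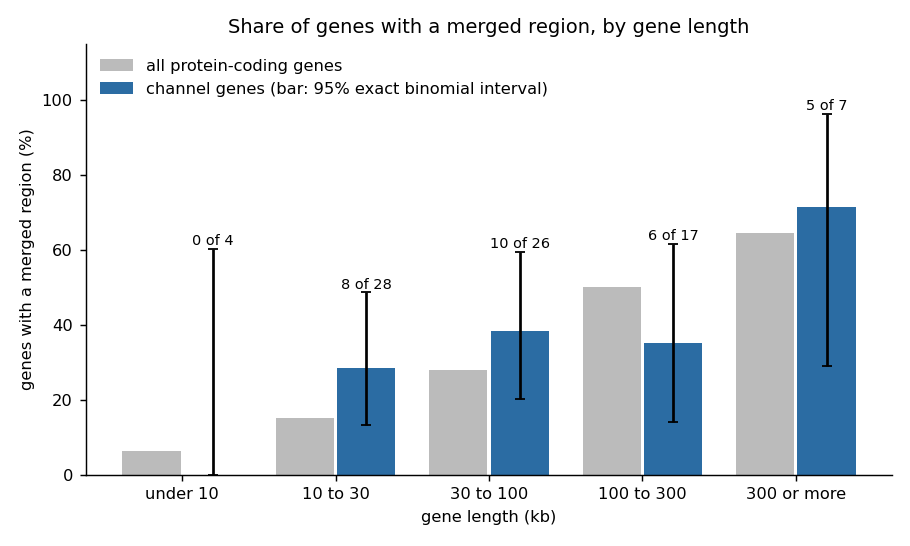
Share of genes with at least 1 merged region (y axis, %) in 5 classes of gene length (x axis, kb), for all protein-coding genes (grey) and channel genes (blue, with the number of genes above). Error bars are 95% exact binomial intervals, which cover counting error only, and the channel genes went from 0 of 4 in the shortest class to 5 of 7 in the longest.

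The number of regions per length did not separate the channel genes from the rest. Over all replicates they held 9.34 regions per Mb (95% Poisson interval 7.39 to 11.7) against 9.90 in other protein-coding genes. Replicate 1 had 1 region in channel genes, 0.12 per Mb against 0.378. Replicate 2 had 50, or 5.99 per Mb against 6.32, and replicate 3 had 31, or 3.71 per Mb against 3.84. The log2 ratio averaged -0.59 ± 0.92 (SD, n = 3), lower in channel genes in 3 of 3 replicates, with p = 0.25 in an exact two-sided sign-flip permutation test, the smallest p that 3 replicates allow. That mean was mostly the single region of replicate 1, and without replicate 1 it was -0.06. The sign in replicates 2 and 3 depended on the peak threshold. With a fold enrichment (the pileup at a summit over the local background) of at least 4 the log2 ratios were 0.24 and 0.08, higher in channel genes. With a −log10 q of at least 2 they were -0.17 and 0.32.

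The regions were unevenly spread over the members, as over all genes. The 8 genes with 3 or more regions held 51 of the 78, or 65.4%, and over all protein-coding genes such genes held 64.3% of the regions. Asic2 and Trpm3 held 12 each, Scn8a 9, Scn2a, P2rx7 and Ano6 4 each, and Trpm8 and Asic1 3 each. This order depended on weak peaks. With a fold enrichment of at least 4, Asic2, Scn2a, Ano6 and Asic1 held 0 regions, Trpm3 3, Scn8a 2, Trpm8 2 and P2rx7 1. Of all protein-coding genes, 105 held more regions than Asic2 and Trpm3, and 184 held more than Scn8a. The rank correlation of gene length with the number of regions was 0.25 over the 82 members and 0.366 over all genes.

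**Figure D2:**
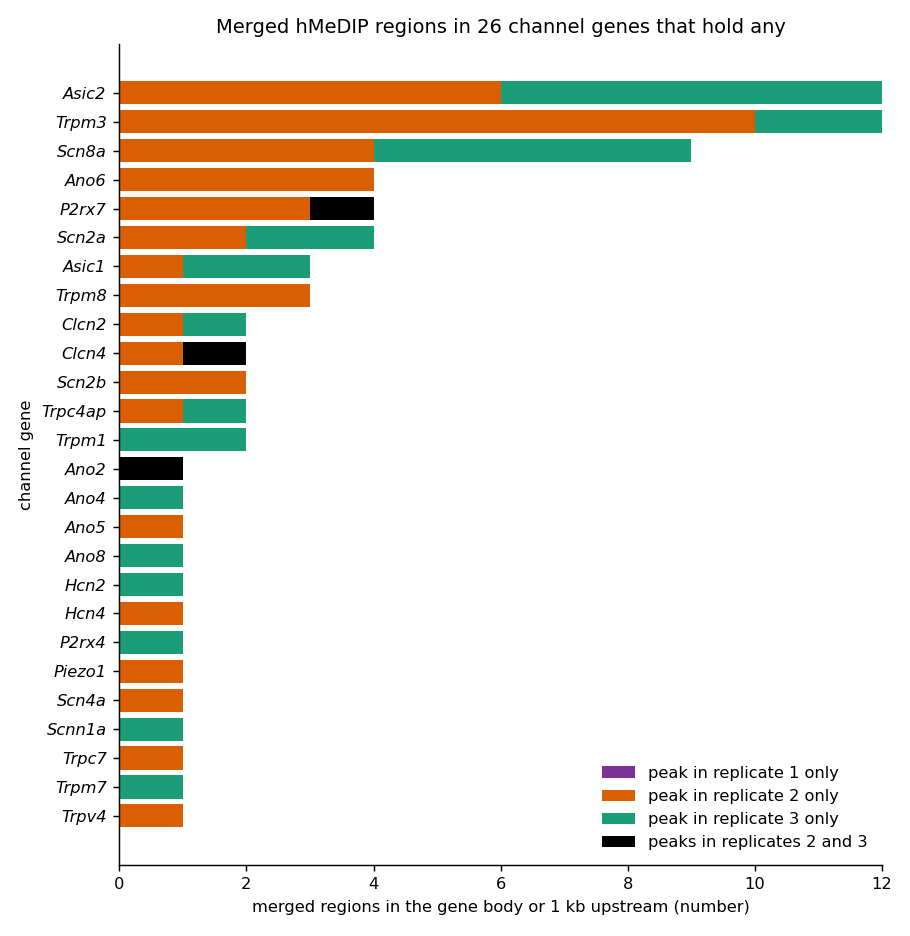
Number of merged regions (x axis) in 26 of the channel genes that held any (y axis), coloured by the replicate whose peak made the region. P2rx7, Clcn4 and Ano2 have a region with peaks of 2 replicates (black), and the other regions shown came from replicate 2 or replicate 3.

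The alpha subunits of the voltage-gated sodium channels form the pore. Scn8a, the sodium channel of axon initial segments and nodes, carried 9 regions over 176 kb (chr15:100767739-100943819), 4 with a peak in replicate 2 and 5 with one in replicate 3. Of the 9, 4 lay in intron 1, which makes up 37.2% of its canonical transcript, and 1 lay in the coding part of exon 27. In the Scn8a regions 5hmC made up 1 of 9, 5 of 26 (19.2%) and 16 of 69 (23.2%) calls in replicates 1 to 3. The Scn8a region at chr15:100847495-100847796 in intron 2, with 15 CpG sites, had 4 calls of 5hmC, 17 of 5mC and 4 of unmodified C in replicate 3. Over all replicates 5 of its 29 calls were 5hmC.

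Scn2a, the sodium channel of early axons and many excitatory neurons, held 4 regions, and 3 of them touched an exon (exons 3, 6 and 19 of 27). Replicates 2 and 3 gave 2 of these regions each, so leaving out either one left 2. Its calls were few: 5hmC made up 0 of 1, 3 of 7 and 8 of 14 calls in replicates 1 to 3. Scn4a, the channel of skeletal muscle, held 1 region with 5hmC in 4 of 9 calls in replicate 2. No region was found in Scn1a, the channel of inhibitory neurons, in spite of its 170 kb, nor in Scn3a, Scn7a, Scn9a, Scn10a or Scn11a. Of the cluster on chromosome 2, Scn2a was thus the only gene with regions, while its neighbours Scn3a, Scn1a, Scn9a and Scn7a had none.

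The beta subunits are small membrane proteins that join the pore to the cell surface and shape its gating. Scn2b held 2 regions in 12.3 kb, the most per length of any member. Both came from replicate 2 alone, and without that replicate it held none. The region just before its start, at chr9:45028086-45028675, had 5hmC in 4 of 11, 4 of 10 and 1 of 2 calls. The region in intron 1, at chr9:45030800-45031909, had a fold enrichment of 5.35 in replicate 2. There 5hmC made up 0 of 5, 4 of 20 and 6 of 11 (54.5%) calls, a wide spread with overlapping intervals in replicates 2 and 3. Both regions also overlap the long noncoding RNA gene Gm10684, so the peaks cannot be assigned to Scn2b alone. Scn4b, which lies 8.23 kb beyond Scn2b and whose product shapes the fast sodium current of Purkinje cells, held none, nor did Scn3b.

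The HCN channels, which open on hyperpolarisation and pace firing, held 1 region each in Hcn2 and Hcn4 and none in Hcn3. The Hcn2 region lay in the 3′ UTR (chr10:79571644-79571945) and was dense in CpG sites, with 27 in 302 bp. 5hmC was 3 of 17, 0 of 10 and 1 of 6 calls in replicates 1 to 3. The rest were mostly 5mC in replicate 1 (13 of 17 calls) and all unmodified C in replicate 2 (10 of 10), but these replicates were called at different CpG sites, with 0 sites in common. The Hcn4 region in intron 4 had 5 calls, all 5mC.

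Acid-sensing channels, sodium channels opened by protons, held 15 regions in 2 of 5 genes. Asic2 spans 1088 kb (chr11:80770995-81859283), the longest member, and 9 of its 12 regions lay in intron 1, which makes up 91.5% of its transcript. All 12 lay at least 646 kb from the start, so the part nearest the start of intron 1 held none. Replicates 2 and 3 gave 6 regions each, with no shared one. The Asic2 region with most calls, at chr11:80813826-80815001 in intron 3, had 5hmC in 7 of 15 (46.7%), 2 of 5 and 5 of 24 (20.8%) calls in replicates 1 to 3. Asic1, the main acid-sensing subunit of neurons, held 3 regions within 5.50 kb of its start, in 30.9 kb, with 5hmC in 2 of 4, 2 of 11 and 5 of 20 calls. Asic3, Asic4 and Asic5 held none. The epithelial sodium channel, a relative of the acid-sensing channels, held 1 region in Scnn1a, with 1 of 19 calls 5hmC in replicate 3, and none in Scnn1b or Scnn1g.

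**Figure D3:**
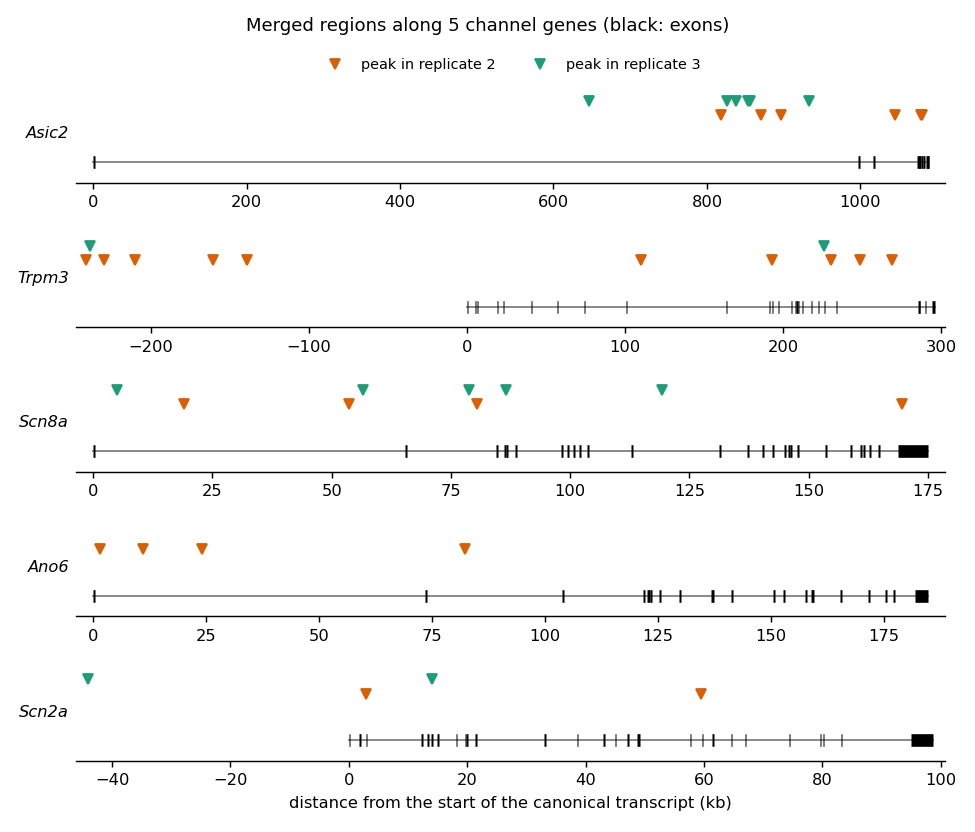
Position of the merged regions (triangles, midpoints) along 5 channel genes, as distance in kb from the start of the canonical transcript (x axis), with exons in black. Regions left of 0 lie in the gene body before that transcript. In Asic2 all 12 regions lie at least 646 kb from the start, and in Trpm3 6 of 12 lie before it.

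P2X receptors are cation channels opened by extracellular ATP. P2rx7, known from microglia and other immune cells, held 4 regions in 48.5 kb (chr5:122781942-122830400), and its neighbour P2rx4 held 1. Without replicate 2, P2rx7 held 1. No region was found in P2rx1, P2rx2, P2rx3, P2rx5 or P2rx6. The P2rx7 region at chr5:122818488-122819244, at intron 12 and exon 13, had a fold enrichment of 3.81 in replicate 2 and 3.86 in replicate 3, each close to 3 reads at the summit. The base-calls of these replicates differed, on very few reads. In replicate 2 no call of 10 was 5hmC (95% exact binomial interval 0 to 30.8%) and all were 5mC. Replicate 3 had 7 5hmC calls of 16 (43.8%, with 19.8 to 70.1%), and replicate 1 had no call. The intervals of replicates 2 and 3 still overlapped. Called sites had 1 call each in replicate 2 and 1 or 2 in replicate 3. The calls along a read are not independent, so the intervals are too narrow. A second region of P2rx7, at chr5:122790558-122790891 by exon 2, had the higher fold enrichment of 5.29 in replicate 2. 5hmC there was 4 of 5, 1 of 8 and 5 of 12 calls. In P2rx4 it was 2 of 2 calls in replicate 1 and 1 of 8 in replicate 3.

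The TRPM genes, cation channels that include sensors of cold and heat and regulators of magnesium, held 18 regions in 4 of 8 genes. Trpm3, which encodes a heat- and steroid-sensitive channel, held 12 over 856 kb, 10 with a peak in replicate 2 and 2 in replicate 3. Of the 12, 6 lay in the part of the gene before the canonical transcript, where longer transcripts begin. 5hmC in the Trpm3 regions was 2 of 14 (14.3%), 20 of 59 (33.9%) and 19 of 38 calls in replicates 1 to 3. Replicate 1, the lowest, had no peak in the gene. The highest fold enrichment of the TRPM genes, 6.18, was at chr19:22530904-22531252, with 5hmC in 0 of 6, 3 of 10 and 8 of 13 calls. Trpm8, the cold and menthol receptor of sensory neurons, held 3 regions, all from replicate 2. The first of them, at chr1:88205871-88206179, had a fold enrichment of 6.04 and 5hmC in 1 of 12 calls in replicate 1 and 7 of 19 in replicate 2 (36.8%). Trpm1 held 2 regions and Trpm7 1, and Trpm2, Trpm4, Trpm5 and Trpm6 held none.

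Among the TRPC symbols 2 of 9 held 3 regions. Trpc4ap, which encodes a protein that binds TRPC channels and not a channel, held 2 of them, and the one at chr2:155531917-155532447 in intron 1 had one of the higher 5hmC shares among channel regions with at least 10 calls. There 4 of 10 calls were 5hmC in replicate 2, and 15 of 26 (57.7%, 95% exact binomial interval 36.9 to 76.6%) in replicate 3. The third, in Trpc7, had 3 calls, all unmodified. No region was found in Trpc1, Trpc2, Trpc4, Trpc5, Trpc5os or Trpc6. Of the TRPV genes 1 of 6 held a region, Trpv4, a channel gated by osmotic swelling and warmth, with a fold enrichment of 4.79 and 3 of 16 calls 5hmC in replicate 2. Trpa1 and the 4 Cnga genes, which encode pore subunits of the photoreceptor and olfactory channels, held none. Piezo1, a stretch-gated channel, held 1 region over exons 36 and 37 with 23 CpG sites, in which 5hmC made up 3 of 10 calls in replicate 1 and 6 of 35 in replicate 2 (17.1%). Piezo2, the touch receptor channel, held none in 377 kb.

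CLC proteins carry chloride as channels or as exchangers against protons. Of 9 genes, 2 held regions. Clcn2, a channel of neurons and glia, held 2, and the one over exons 16 to 18 had 5hmC in 6 of 18 calls in replicate 1 although the peak was of replicate 2. Clcn4, a chloride and proton exchanger of endosomes, held the region with most calls of any member, at chr7:7299758-7300470 in intron 1 and the edge of exon 2. The fold enrichment was 3.70 in replicate 2 and 5.66 in replicate 3. The region held 42 CpG sites. In replicate 1, 9 of 38 calls were 5hmC (23.7%, 95% exact binomial interval 11.4 to 40.2%). Replicate 3 gave 28 of 108 calls (25.9%, with 18 to 35.2%), and replicate 2 had no call in spite of its peak. Each site called in replicate 1 had 1 call, so its 38 calls came from very few reads. The intervals take calls along a read as independent, so how closely these shares match cannot be told. The other calls were mostly 5mC, 24 in replicate 1 and 79 in replicate 3. All 42 sites were called at least once and 25 had a 5hmC call, 5 of them in both replicates.

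A second Clcn4 region close by, at chr7:7300701-7301004 in intron 1 with 19 CpG sites, was mostly unmodified. Unmodified C made up 4 of 4, 13 of 16 and 11 of 11 calls, and 5hmC made up 2 of 31 over the replicates. In replicates 1 and 3, which covered both regions, the main state differed between them. In these replicates each called site of the second region had 1 call, so the difference rested on very few reads. The first region also overlaps the long noncoding RNA gene Gm45631. Clcn3, an exchanger of synaptic vesicles and endosomes, held none, nor did Clcn1, Clcn5, Clcn6 or Clcn7.

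The anoctamins, a family of calcium-activated chloride channels and lipid scramblases, held 8 regions in 5 of 9 genes. Ano2, a calcium-activated chloride channel, carried the strongest peaks of any member, with a fold enrichment of 9.44 in replicate 2 and 12.95 in replicate 3. At the genome-wide background that would be about 8.86 and 12.4 reads at the summit, and more at a higher local background. The peaks, at chr6:125853667-125854796, lay on the repeat printed among the sequences, which held 2 CpG sites in 1130 bp and gave 1 base-call, so the 5hmC of the most enriched region could not be read. The part of the repeat in these peaks was not tested. Ano6, a lipid scramblase, held 4 regions, all from replicate 2 and 3 of them in intron 1, with 5hmC in 1 of 3, 10 of 38 (26.3%) and 1 of 11 calls. Ano8 held a region of 25 CpG sites over exons 4 and 5, where 1 of 23 calls was 5hmC and 17 were 5mC. Ano4 and Ano5 held 1 region each, with 2 calls apiece, and Ano3, Ano7, Ano9 and Ano10 held none.

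Peaks of channel genes had heights close to those elsewhere in replicates 2 and 3. The median fold enrichment was 3.81 in channel genes and 3.83 in other protein-coding genes in replicate 2, and 3.87 in both in replicate 3. The single peak of replicate 1 had 5.67 against a median of 4.72. The mean difference of the medians was 0.31 ± 0.55 (SD, n = 3), with p = 0.75 in the exact sign-flip permutation test, and -0.01 without replicate 1. Most peaks rested on few reads, as computed with the genome-wide background for every peak. This gave close to a whole number of reads for 29 of the 50 peaks of replicate 2 (58%). In replicate 3 it did so for 20 of 31 (64.5%). For the other peaks the count is approximate, and too low where the local background was higher. By this computation at most 3 reads at the summit made 38 of the 50 peaks of replicate 2 (76.0%, against 80.9% elsewhere). In replicate 3 they made 25 of the 31 (80.6%, against 82.7%).

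Over all regions of channel genes, 5hmC made up 28.2%, 25.6% and 29.3% of calls in replicates 1 to 3, which gave 234, 394 and 498 calls. In other protein-coding genes it made up 30.5%, 32.4% and 31.7%. The mean was 27.7% ± 1.89 against 31.5% ± 0.925 (SD, n = 3), with channel genes lower in 3 of 3 replicates by 2.34, 6.75 and 2.35 percentage points. The exact two-sided sign-flip permutation test gave p = 0.25, the smallest it can give with 3 replicates, so the design cannot set this difference apart from the spread. 5mC made up 45.7%, 38.3% and 46.4% of calls in channel genes, on average 43.5% against 40.5%, and unmodified C 26.1%, 36.0% and 24.3%, on average 28.8% against 28.0%. These differences changed sign between replicates (p = 0.50 and p = 1, same exact permutation test).

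**Figure D4:**
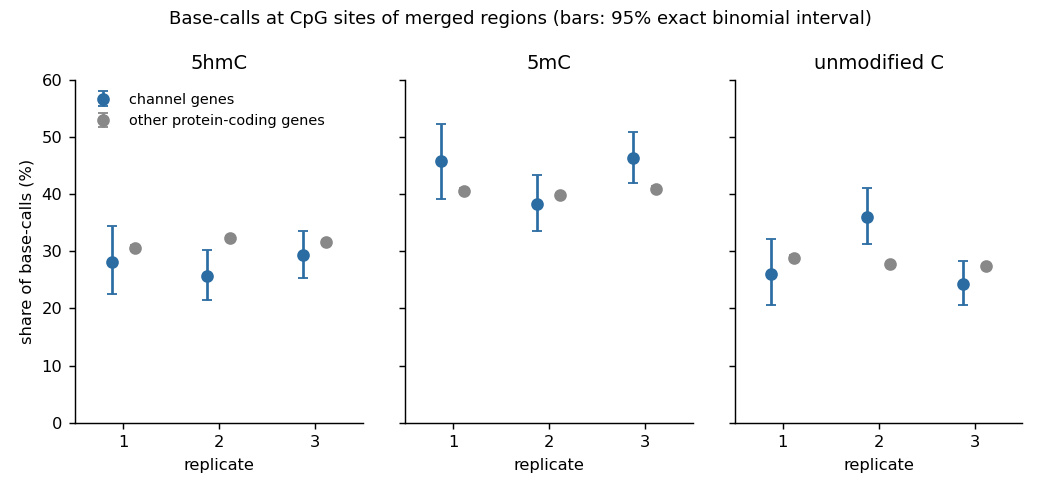
Share of base-calls (y axis, %) that were 5hmC, 5mC or unmodified C in the merged regions of channel genes (blue) and of other protein-coding genes (grey), for each replicate (x axis). Error bars are 95% exact binomial intervals, which cover counting error only. The 5hmC share of channel genes is the lower in each replicate, and its interval leaves out the 5hmC share of the other genes in replicate 2 only.

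The 5hmC difference turned with the sites used. Within a replicate's own peaks it was 13.3 points higher in channel genes in replicate 1, where the 12 calls are those of a single peak, and 6.45 and 2.33 points lower in replicates 2 and 3. Where a CpG site needed 3 calls or more, it was 33.5 points higher, 2.77 lower and 9.63 higher, on few sites. Without the Clcn4 region of most calls, which gave none of the calls of replicate 2 but 16.2% of those in replicate 1 and 21.7% in replicate 3, channel genes remained lower by 1.47, 6.75 and 1.41 points.

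The 5hmC share differed with CpG density. Channel regions with at least 4 CpG sites per 100 bp (7 of 78, 8.97% against 5.12% elsewhere) held 64, 27 and 191 calls. 5hmC made up 13 (20.3%), 2 (7.41%) and 37 (19.4%) of these, against 22.6%, 22.4% and 22.0% elsewhere. The best-covered Clcn4 region gave 38 of the 64 calls in replicate 1 and 108 of the 191 in replicate 3. In replicate 2 the other Clcn4 region gave 16 of the 27 calls and the Hcn2 region 10. Regions with 2 to 4 sites per 100 bp had 26.3%, 25.1% and 33.2%, against 32.4%, 32.7% and 32.3%. Those with 1 to 2 had 34.4%, 26.0% and 41.1%, against 35.6%, 36.9% and 37.6%. Under 1 site per 100 bp, 5hmC was 6 of 10, 16 of 41 and 7 of 21 calls of channel regions (33.3% in replicate 3), against 37.7%, 40.3% and 39.5% elsewhere, so that channel regions were higher in replicate 1, on 10 calls, and lower in replicates 2 and 3. From 1 site per 100 bp upwards the share was thus lower in denser channel regions in each replicate, but the densest class rested largely on the Clcn4 and Hcn2 regions. The sparsest regions lay above the next class in replicates 1 and 2 and under it in replicate 3. The part of CpG density in the overall difference was not tested.

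Single regions differed widely. Of the 78, 36 had at least 10 calls over the replicates, and 5hmC in these ran from 4.35% to 52.9% with a median of 27.1%, against a median of 33.3% in 5031 regions of other genes. Under 10% were 5 of the 36 (13.9%, against 6.94% elsewhere), namely single regions of Ano8, Scnn1a, Clcn4, Trpm3 and Ano6. At 50% or more were 3 (8.33%, against 18.2%), those of Trpm3 and Trpc4ap among them. No CpG site of a channel gene had more than 4 calls in a replicate, so a share at a single site carried almost no precision.

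**Figure D5:**
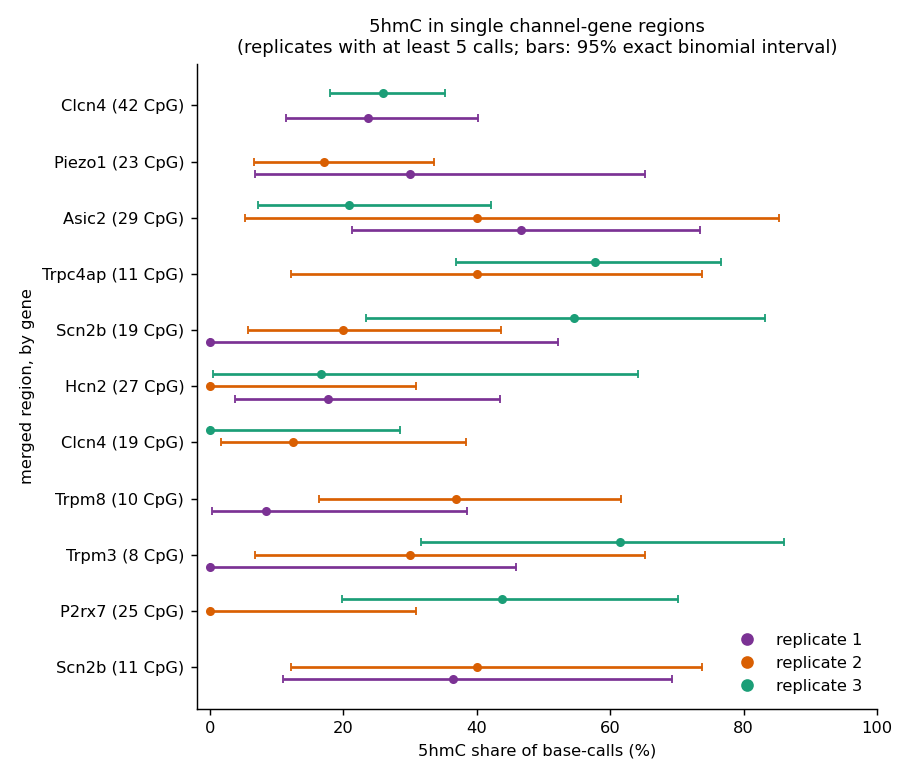
5hmC share of base-calls (x axis, %) in 11 channel-gene regions with at least 10 calls in 2 or more replicates (y axis, gene and number of CpG sites), for each replicate with at least 5 calls. Error bars are 95% exact binomial intervals, which cover counting error only. In each region the intervals of the replicates shown overlap, and the shares run from 0 in replicates with few calls to 61.5% in Trpm3.

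By position, 60 of the 78 regions lay mostly in an intron (76.9%, against 81.4% elsewhere), 3 mostly in coding sequence, 2 in a 3′ UTR and 4 in the 1 kb before the start, while 9 (11.5%, against 5.45%) lay in the gene but outside the canonical transcript, 6 of these in Trpm3. An exon was touched by 18. Another annotated gene overlapped 11 of the 78, a long noncoding RNA gene in 10 of these, among them the P2rx7 and Ano2 regions of 2 replicates and 3 of the 4 Ano6 regions, so these peaks cannot be assigned to the channel gene alone. Regions were short, 47 of 78 (60.3%, against 55.3%) being at most 310 bp wide, with a median of 6 CpG sites, against 7. No base-call in any replicate was given by 7 (8.97%, against 5.19%).

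Genes that work with these channels, listed by role, held regions in 32 of 63 cases (50.8%). At the shares of all genes of the same length 20.7 would, and their median length was 55.2 kb. Of 12 partners of sodium channels at the axon initial segment, 10 held 68 regions, among them Ank2 with 22, Ank3 with 18 and Nfasc with 10. These genes were long, with a median of 284 kb, and 5.50 of the 12 would hold a region at the shares of their length classes. Ank3 encodes the ankyrin that anchors sodium channels at the initial segment, and Nfasc the adhesion protein neurofascin. Of these regions 5 (7.35%, against 6.10% of the regions in all protein-coding genes) had peaks of 2 replicates, 3 of them in Nfasc with peaks of replicates 1 and 2. The one at chr1:132496360-132496938 had 5hmC in 17 of 30 calls in replicate 1 and 13 of 28 in replicate 2. Over the 12 genes 5hmC made up 35.9%, 39.7% and 34.5% of calls, against the 30.5%, 32.4% and 31.7% of all protein-coding genes outside the channels. It made up 45.8%, 39.4% and 33.5% over the sodium pump and exchangers, and 24.2%, 47.9% and 24.1% over the TRP relatives. Over the chloride transporters it was 7.69%, 24.8% and 24.2%. In replicates 1 and 2 those calls were largely of 1 Slc12a5 region, with 116 of 117 and 108 of 129 calls. A Tpcn1 region likewise gave 33 of the 33 calls of the TRP relatives in replicate 1. For the sodium pump and exchangers, a single Slc8a2 region gave 89 of 190, 61 of 231 and 72 of 182 calls in replicates 1 to 3. Of 10 genes of the sodium pump and exchangers 7 held 28 regions, where 3.02 would at their length, and Slc8a2, a sodium and calcium exchanger, had one over coding sequence with 5hmC in 44 of 89, 20 of 61 and 18 of 72 calls. Of 7 chloride transporters 4 held 7 regions, where 1.83 would. Slc12a5, which encodes the potassium and chloride cotransporter KCC2 that keeps neuronal chloride low, had a region in its 3′ UTR with peaks of replicates 1 and 2 and with 5hmC in only 9 of 116 calls in replicate 1 and 22 of 108 in replicate 2. The 10 TRP relatives held 6 regions in 3 genes (2.76 at their length), the 15 other chloride channels and partners 11 in 6 (3.78), the 5 genes of the sodium leak channel complex 3 in 2 (2.44), and the 4 partners of HCN and cyclic nucleotide-gated channels none (1.35). These lists were drawn up by function, with earlier results of these data known, and several of the genes are very long.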

How the data were processed

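The data were the peak lists and CpG base-call tables of 3 hMeDIP replicates. The authors base-called nanopore reads with Dorado, aligned them to mm39 (GRCm39) with minimap2 and called the peaks of each replicate with MACS2, with the untreated sample as control. Each deposited peak carries a ratio to its local background (the fold enrichment), −log10 values of p and q, and a display score. The deposited pileups, made by the authors with modkit at CpG sites outside masked repeats, give counts of calls for unmodified C, 5mC and 5hmC at a site, and the percent modified. Calls are listed on the forward strand only and within peaks of any replicate, and whether calls of the reverse strand were combined with these or left out could not be told, so a site or region without a call may still have had reads.

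Peaks overlapping by at least 1 bp were merged and assigned by midpoint to GENCODE M39 protein-coding genes with 1 kb upstream. A share is the summed calls of a state over all calls in every merged region, whether or not the replicate had the peak. Replicates were compared with exact two-sided sign-flip permutation tests, whose smallest p is 0.25. Intervals are 95% exact binomial or Poisson and cover counting error only, since calls along a read are not independent. Channel regions held 234, 394 and 498 calls in replicates 1 to 3, and 82.7%, 73.6% and 62.0% of their called CpG sites had 1 call. Reads at a summit were computed from the fold enrichment and the most common fold of the list, taken as the genome-wide background. They are too low for peaks whose local background was higher.

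Members and lists were chosen with earlier results of these data known. Genes were named if they had a region of 2 replicates, were among the 10 with most regions, had the highest fold of their family, held 1 of the 12 best-covered regions, or stood on a list of 20 genes. Other genes were named as examples or to account for the members; some members are counted in the totals but not reported singly here. Sequence windows were placed on the most base-calls after the values were seen, where the middle of the region had been planned. scipy 1.17.1, pandas 2.3.3, pysam 0.24.0, matplotlib 3.10.9 and numpy 2.4.6 were used under Python 3.11.15, and the functions were tested on simulated data. Peak thresholds, merging, assignment, depth and replicates were varied.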

Additional observations from a re-analysis of the deposited data

How the results depend on the processing

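Merging within 500 bp and assignment by any overlap left the count of genes at 29 and gave 77 and 78 regions. With a fold enrichment of at least 4, 12 genes, 18 regions and 1 region of 2 replicates were left. With a reciprocal overlap of at least 50% the number of shared regions was 0, since in each of the 4 the narrower peak lay within a wider one. Leaving out each replicate in turn gave 19 to 29 genes, 32 to 77 regions and 0 to 4 shared regions, the lowest counts of genes and regions without replicate 2. The 5hmC share in channel regions moved to 40.5% at CpG sites with at least 3 calls and to 32.1% within own peaks, and the difference from other genes turned to 13.4 and 1.50 percentage points higher. Under the other alternatives run, channel genes were the lower, with differences from -5.05 to -2.41 points, those chosen after seeing the data included (without the best-covered region, and without Scnm1, Trpc4ap and Trpc5os). No channel site had 5 calls, so that minimum gave no value. The difference in median fold enrichment ranged from -0.0111 without replicate 1 to 0.47. The causes were not tested. Depth limits every share, as no CpG site of a channel gene had over 4 calls in a replicate.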
